A study of Mus musculus with 13 samples.

Results

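The genes described here are 6 fibroblast growth factor (FGF) ligands, Fgf1, Fgf2, Fgf5, Fgf7, Fgf10 and Fgf18, and 4 FGF receptors, Fgfr1, Fgfr2, Fgfr3 and Fgfrl1. They were chosen by name, and make up 10 of the 40787 genes in the table. RNA was sequenced from mouse sciatic nerves collected 5 days after a crush (5 dpc), and from the uninjured contralateral nerves, of controls and RaptorKOs on the C57BL/6 strain. RaptorKOs carried floxed alleles of Rptor (Rptor flox/flox), which encodes a subunit of the kinase complex mTORC1, and a tamoxifen-inducible Cre (CreERT2) that recombines them mainly in Schwann cells (SCs). Controls carried the same floxed alleles without Cre. Both genotypes received tamoxifen at 2 months of age and were operated on 2 months after the last injection. The groups held 3 control contralateral, 4 RaptorKO contralateral, 3 control injured, and 3 RaptorKO injured nerves, with 1 library per nerve. In crushed nerves the RNA came from the part distal to the injury site. The stretch taken from contralateral nerves is not given in the sources used here. The epineurium had been pulled off and the rest of the tissue was used whole, so the RNA mixes SCs with all other cells of the nerve.

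FGF ligands bind receptor tyrosine kinases on the cell surface together with heparan sulfate, and the activated receptor passes the signal through the adaptor Frs2 to Ras and the MAP kinases. Cells answer by making feedback inhibitors of the Sprouty and Spred families and Etv transcription factors. In peripheral nerves, FGFs are best known as mitogens for SCs and as factors that act on axon growth.

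Library totals were 8200476 to 13581788 estimated counts. Rptor, the targeted gene, had 43.9 to 52.7 CPM (counts scaled by library size, with the TMM factors edgeR computes) in control and 22.1 to 28.2 CPM in RaptorKO contralateral nerves, and 35.2 to 48.8 CPM in control and 23.3 to 28.8 CPM in RaptorKO injured nerves, so that the genotypes did not overlap on either side. Sex-linked genes set both libraries of control replicate 3 apart. Xist had 14462 and 15017 counts in them, and 4 to 17 in the other 11 libraries. The summed counts of 4 Y-linked genes were 10 and 20, and 1456 to 2338 elsewhere. Injured nerves were collected with the corresponding contralateral nerves of unilaterally crushed mice, and the labels number both sides alike within a genotype. Same numbers across genotypes are different mice.

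Tests were restricted to genes that reached 50 counts in at least 2 of the libraries being compared. A change was called at a Benjamini-Hochberg adjusted p below 0.05 in edgeR's quasi-likelihood test, with a fold change above 1.2. All adjusted p values below come from this test, over all tested genes. After injury, 6 of the 10 members could be tested in controls. Of these, Fgf5, Fgfr1 and Fgfrl1 rose and Fgf1, Fgf2 and Fgf7 fell, while 32.4% of 12430 genes rose and 32.9% fell in the same comparison. In RaptorKOs 8 members could be tested, of which Fgf5 and Fgfr2 rose and Fgf1, Fgf2 and Fgf7 fell, against 30.5% and 28.5% of 12515 genes. Between genotypes, the contralateral nerves of RaptorKOs had less Fgf1, Fgf2 and Fgf7 and more Fgfr1 and Fgfrl1 among 6 tested members, where 4.49% of 11878 genes were called higher and 5.68% lower. In injured nerves only Fgfr2 of 7 tested members was called, higher in RaptorKOs, with 4.09% of 12040 genes higher and 4.44% lower. The median log2 fold change of the tested members was -0.50 after injury in controls, -0.30 after injury in RaptorKOs, -0.02 between contralateral nerves and -0.01 between injured nerves. Over all tested genes it was 0.00, 0.03, 0.01 and 0.00. Several of these values passed the count minimum only through the group in which the gene was high. This holds for Fgf5 after injury, for Fgfr2 between injured nerves and upon injury in RaptorKOs, and for Fgfr3 between contralateral nerves and upon injury in RaptorKOs, so the counts describe the members that could be tested and not all 10. Fgf10 and Fgf18 were below the minimum in every comparison.

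**Figure D1:**
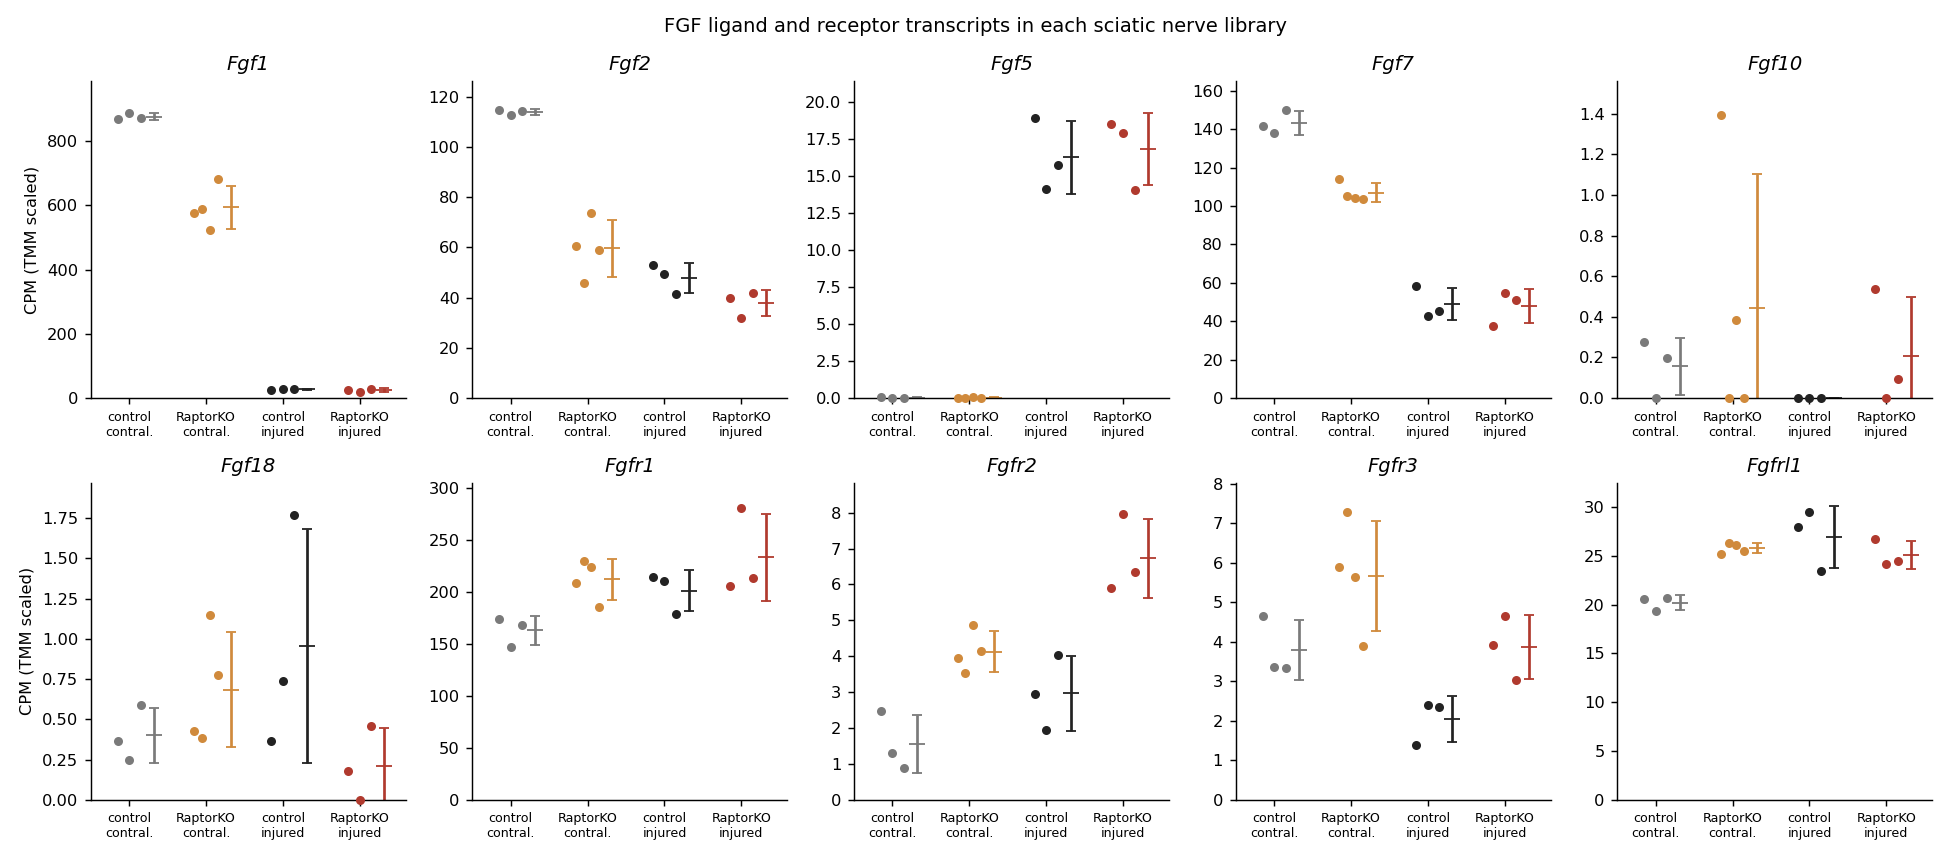
Level of each of the 10 genes in CPM (TMM scaled, linear axis from 0, own scale per panel) in the 13 libraries, with a point per nerve and mean ± SD beside each group, cut at 0 where the bar would run below it. Fgf1 dropped from 524 CPM or more in contralateral nerves to 29.5 CPM or less in injured nerves, and Fgf5 went from 0.0958 CPM or less to 14.1 CPM or more.

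To compare levels between genes, CPM were divided by the length of the merged exons. In control contralateral nerves the 6 ligands together reached 222 ± 1.81 CPM per kb (SD, n = 3), of which Fgf1 made up 72.4 ± 0.883%, Fgf7 19.9 ± 0.777%, and Fgf2 7.58 ± 0.1%. In control injured nerves the sum was 34.5 ± 3.41 CPM per kb (n = 3), and the make-up was different. Fgf7 now held 43.4 ± 2.99% of it, Fgf2 20.5 ± 2.11%, Fgf5 18.8 ± 1.08%, and Fgf1 14.9 ± 2.3%. RaptorKO nerves had 151 ± 11 CPM per kb of ligand on the contralateral side (n = 4) and 31.7 ± 1.79 on the injured side (n = 3). The shares were alike in RaptorKOs, with Fgf1 at 71.8 ± 3% in contralateral and 14 ± 3.04% in injured nerves, and Fgf7 at 46.2 ± 6.74% in injured nerves.

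The receptor sum covered a narrower range on this scale. It was 24.4 ± 1.78 CPM per kb in control contralateral, 31.9 ± 2.34 in RaptorKO contralateral, 30.6 ± 2.97 in control injured, and 33.8 ± 4.1 in RaptorKO injured nerves. Fgfr1 made up between 64.9% and 73.8% of the receptor sum in each of the 13 libraries and Fgfrl1 between 22.5% and 32.7%. Fgfr2 and Fgfr3 stayed at 2% or less and 2.99% or less. The ligand sum was therefore above the receptor sum by a wide margin in contralateral nerves, and close to it in injured nerves. That closeness depends on which genes are summed. The receptor sum counts Fgfrl1, which has no kinase domain. Fgfr1 alone was at 20.4 ± 2 CPM per kb in control injured and 23.6 ± 4.21 in RaptorKO injured nerves, below the ligand sums there. Ligands outside the members, such as Fgf4, are not in the ligand sum.

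**Figure D2:**
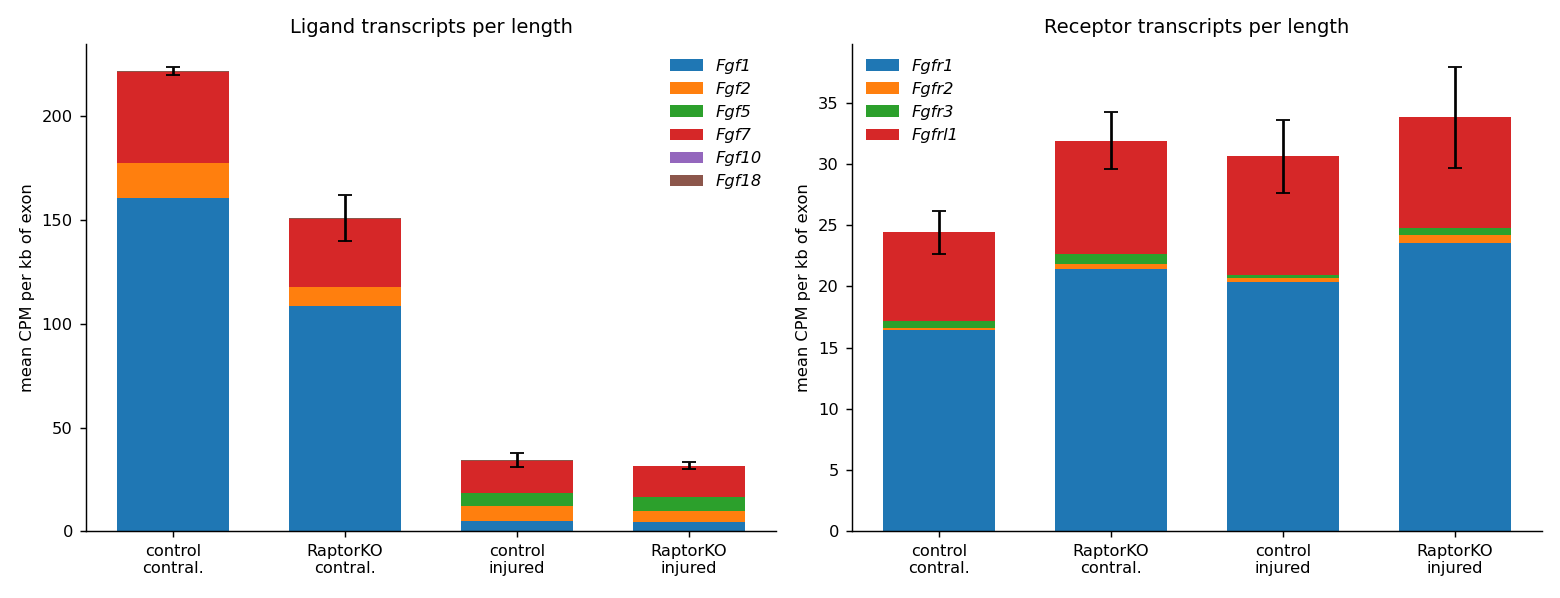
Mean level per length (CPM per kb of merged exon, linear axis from 0) of the 6 ligands and of the 4 receptors, stacked by gene in each group, with the error bar giving the SD of the sum over 3 or 4 nerves. The ligand stack is dominated by Fgf1 in contralateral nerves and by no single gene in injured nerves, and Fgfr1 is the largest part of every receptor stack.

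Fgf1 encodes acidic FGF, a ligand that lacks a classical secretion signal and binds all FGF receptors. Its gene (ENSMUSG00000036585) had 868, 887 and 873 CPM in control contralateral nerves and 26, 29.5 and 28.1 CPM in control injured nerves. The corresponding values in RaptorKOs were 577, 590, 524 and 683 CPM in contralateral nerves, and 25.1, 18.5 and 29.3 CPM in injured nerves. Every injured nerve lay far below every contralateral nerve. The log2 fold change upon injury was -5.00 (SE 0.12, adjusted p = 4.97e-11) in controls and -4.62 (SE 0.18, adjusted p = 1.53e-08) in RaptorKOs. The RaptorKO contralateral nerves also all lay below the controls, with a log2 fold change of -0.54 (SE 0.10, adjusted p = 0.00567). In injured nerves the genotypes overlapped, and the difference was -0.19 (95% confidence interval -0.57 to 0.19, adjusted p = 0.619). In whole nerves, fewer cells of a type and less RNA per cell cannot be told apart, for this gene and for those that follow.

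The summed level of 6 SC and myelin markers (Sox10, S100b, Erbb3, Mbp, Prx and Gldn) moved with Fgf1 upon injury. It was 30605 to 33050 CPM in control and 28526 to 33494 CPM in RaptorKO contralateral nerves, and dropped to 2034 to 2316 CPM and 1609 to 2023 CPM in injured nerves. The sum is weighted by the most abundant markers, and the median log2 fold change of the 6 upon injury was -0.92 in each genotype. Of the 6 markers, 5 fell after injury in controls and 4 in RaptorKOs, while in RaptorKOs compared with controls 2 were lower in contralateral and 1 in injured nerves. Its part in the level of Fgf1 was not tested.

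Fgf2 encodes basic FGF, which also lacks a classical secretion signal. Its gene (ENSMUSG00000037225) spans positions 37348346 to 37410108 of chromosome 3 (GRCm38). It had 115, 113 and 115 CPM in control contralateral and 53.1, 49.3 and 41.3 CPM in control injured nerves. RaptorKOs had 60.5, 45.7, 73.5 and 58.9 CPM in contralateral and 40, 32.1 and 41.8 CPM in injured nerves. The contralateral controls thus stood alone at the top, and the RaptorKO contralateral nerves overlapped with the injured controls. Between contralateral nerves the log2 fold change was -0.92 (SE 0.13, adjusted p = 0.0017), the largest among the 6 members that passed the count minimum in that comparison. Injury lowered Fgf2 by a log2 fold change of -1.28 (SE 0.10, adjusted p = 3.31e-07) in controls and -0.66 (SE 0.16, adjusted p = 0.0057) in RaptorKOs. The difference between these responses, tested as an interaction, was 0.60 (SE 0.21, 95% confidence interval 0.15 to 1.04), and was not called (adjusted p = 0.173). Injured RaptorKO and control nerves overlapped, with a difference of -0.32 (95% confidence interval -0.63 to -0.01, adjusted p = 0.209). Exons of Fgf2 share 640 bases, 9.4% of their merged length, with Nudt6 on the other strand and 255 bases with Gm43439 on the same strand. The library kit marks strand, but whether counting used it is not given in the sources used here.

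Fgf7 encodes keratinocyte growth factor, a secreted ligand made by mesenchymal cells that binds an epithelial splice form of Fgfr2. Its gene (ENSMUSG00000027208) spans positions 126034658 to 126091185 of chromosome 2. In controls, the contralateral nerves had 142, 138 and 150 CPM of Fgf7 and the injured ones 58.3, 42.7 and 45.5 CPM. In RaptorKOs, contralateral nerves were at 114, 105, 104 and 103 CPM, and injured nerves at 37.8, 54.6 and 51.1 CPM. The contralateral groups did not overlap with each other or with the injured nerves, while the injured groups overlapped. The log2 fold change upon injury was -1.58 (SE 0.11, adjusted p = 1.52e-07) in controls and -1.16 (SE 0.13, adjusted p = 2.39e-05) in RaptorKOs, and the interaction of 0.39 (SE 0.18) was not called (adjusted p = 0.339). RaptorKO contralateral nerves had less Fgf7 than controls (log2 fold change -0.40, SE 0.07, adjusted p = 0.00642), and injured nerves gave -0.01 (95% confidence interval -0.37 to 0.35, adjusted p = 0.98).

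Fgf5 encodes a secreted ligand known from the hair cycle, where its loss gives long hair. Its gene (ENSMUSG00000029337) spans positions 98254184 to 98277030 of chromosome 5. In 7 contralateral nerves it had 2 counts in all, with 1 in control replicate 1 and 1 in RaptorKO replicate 3. The injured nerves had 206, 153 and 160 counts in controls and 207, 227 and 153 counts in RaptorKOs, or 18.9, 14.1 and 15.7 CPM and 18.5, 17.9 and 14.1 CPM. Thus Fgf5 was close to undetected in every contralateral nerve and present in every injured nerve, at similar levels in both genotypes. Scaled by library size, the ratio of the 519 counts in injured to the 1 count in contralateral control nerves was 542, with an exact 95% interval of 96.9 to 21458. In RaptorKOs 587 counts against 1 gave a ratio of 685 (122 to 27096). These intervals cover counting error only. The fitted log2 fold changes, 8.59 in controls (adjusted p = 2.42e-08) and 8.85 in RaptorKOs (adjusted p = 1.19e-07), depend on the small prior count that the fit adds, and became 6.25 and 6.33 with a prior count of 2. Between injured nerves the difference was 0.07 (95% confidence interval -0.34 to 0.47, adjusted p = 0.891).

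Because Fgf5 and Fgf7 moved in opposite directions after injury, the 250 bases before their annotated starts are shown, with each CG dinucleotide in capitals. Both are on the plus strand, are taken from RefSeq (GRCm38.p6), and overlap 0 exons of the annotation. The window of Fgf5 lies at chr5:98253934-98254183 and that of Fgf7 at chr2:126034408-126034657.
Fgf5: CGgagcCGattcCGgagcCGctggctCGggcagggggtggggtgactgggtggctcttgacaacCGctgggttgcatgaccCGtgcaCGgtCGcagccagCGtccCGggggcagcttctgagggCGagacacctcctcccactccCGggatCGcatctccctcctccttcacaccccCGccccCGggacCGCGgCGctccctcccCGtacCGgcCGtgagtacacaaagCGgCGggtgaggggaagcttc
Fgf7: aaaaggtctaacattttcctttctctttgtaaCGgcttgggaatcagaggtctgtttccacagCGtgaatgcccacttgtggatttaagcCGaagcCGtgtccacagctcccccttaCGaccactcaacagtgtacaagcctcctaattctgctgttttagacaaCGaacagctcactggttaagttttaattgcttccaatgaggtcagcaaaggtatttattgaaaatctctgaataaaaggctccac
The Fgf5 window held 24 CG dinucleotides and 70.8% G or C, and the Fgf7 window 6 and 43.6%. Over all 32851 windows of this kind the medians were 6 and 52.4%, and 12% of windows held at least as many CG dinucleotides as that of Fgf5, against 50.4% for Fgf7. The contrast is that of the pair shown. The window of Fgf2, which also fell upon injury, held 20 CG dinucleotides and 62.4% G or C. That of Fgfrl1, which rose in controls, held 30 and 73.6%, and that of Fgfr2, which rose in RaptorKOs, 2 and 44%. A link between these windows and the response to injury was not tested. Windows of 250 bases before to 50 after a start were at hand for 8 of the 10 members, with 9 windows in all, 2 of them for Fgfr3. None was used for Fgf1 and Fgfr1. A search of these windows for the AP-1 motif TGANTCA, which reads the same on both strands, found it in 0 of 9, while 7.81% of all windows hold it. This says only that these letters are not in these windows.

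Fgf10, a close relative of Fgf7 (ENSMUSG00000021732, chromosome 13, 118669791 to 118792115), and Fgf18, a ligand known from skeletal development (ENSMUSG00000057967, chromosome 11, 33117430 to 33147400), were barely detected. Fgf10 had 3, 0 and 2 counts in control contralateral, 13, 0, 4 and 0 in RaptorKO contralateral, 0, 0 and 0 in control injured, and 6, 0 and 1 in RaptorKO injured nerves. Fgf18 had 4, 3 and 6 counts, 4, 5, 12 and 6 counts, 4, 8 and 18 counts, and 2, 0 and 5 counts in the same groups. For both genes all groups overlapped with their neighbors in the order of means, and a difference was not detectable at this depth.

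Fgfr1 encodes a receptor kinase, and per length had the highest level of the 4 receptors in every nerve. Its gene (ENSMUSG00000031565) spans positions 25513654 to 25575718 of chromosome 8. Control nerves had 173, 147 and 168 CPM on the contralateral and 214, 211 and 178 CPM on the injured side. RaptorKO nerves had 208, 229, 224 and 185 CPM on the contralateral and 205, 281 and 213 CPM on the injured side. The control contralateral nerves were the lowest, without overlap with any other group, and the remaining groups overlapped with their neighbors. The log2 fold change was 0.40 (SE 0.10, adjusted p = 0.0256) between contralateral nerves and 0.28 (SE 0.10, adjusted p = 0.0302) upon injury in controls. It was 0.13 (95% confidence interval -0.15 to 0.41) upon injury in RaptorKOs and 0.23 (95% confidence interval -0.08 to 0.53) between injured nerves, neither of which was called. The difference between contralateral nerves lost its call without any of the 3 control contralateral nerves (adjusted p = 0.0576, 0.129 and 0.0659 without replicate 1, 2 and 3) and without RaptorKO contralateral replicate 1 or 2 (0.0525 and 0.0551). The change upon injury in controls lost it without contralateral replicate 2 or 3 (0.145 and 0.0533) or injured replicate 1 or 2 (0.0589 and 0.0723), and kept it without both libraries of control replicate 3 (log2 fold change 0.39, adjusted p = 0.0126).

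Fgfrl1 encodes a receptor of the family that binds FGFs and heparan sulfate, but has no kinase domain. Its gene (ENSMUSG00000008090) spans positions 108692382 to 108706924 of chromosome 5. It had 20.6, 19.3 and 20.7 CPM in control contralateral and 28, 29.5 and 23.4 CPM in control injured nerves. RaptorKOs had 25.2, 26.4, 26.1 and 25.5 CPM in contralateral and 26.8, 24.2 and 24.4 CPM in injured nerves. As for Fgfr1, the contralateral controls were below every other nerve. The log2 fold change was 0.39 (SE 0.14, adjusted p = 0.0244) upon injury in controls and 0.37 (SE 0.10, adjusted p = 0.0476) between contralateral nerves, both modest. Upon injury in RaptorKOs it was -0.04 (95% confidence interval -0.30 to 0.21) and between injured nerves -0.09 (95% confidence interval -0.40 to 0.23). The interaction was -0.46 (SE 0.16, 95% confidence interval -0.80 to -0.11) and was not called (adjusted p = 0.191). The contralateral difference was lost in 12 of 14 alternative analyses, among them leaving out any single nerve (adjusted p 0.0547 to 0.174). The change in controls upon injury was lost without contralateral replicate 1, 2 or 3 (0.0578, 0.0828 and 0.0524) or injured replicate 2 (0.0803).

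Fgfr2 and Fgfr3, receptor kinases best known from epithelia and from cartilage, were at low levels. In the annotation, Fgfr2 (ENSMUSG00000030849) spans positions 130162451 to 133123350 of chromosome 7, on the minus strand. It shares 314 bases of exon, 3.0% of its merged exon length, with Ctbp2 on the same strand. It had 27, 16 and 9 counts in control contralateral, 37, 46, 51 and 32 in RaptorKO contralateral, 32, 21 and 41 in control injured, and 66, 101 and 69 in RaptorKO injured nerves. As CPM these are 0.882 to 2.47, 3.53 to 4.88, 1.93 to 4.03, and 5.89 to 7.97, and neither on the contralateral nor on the injured side did the genotypes overlap. In injured nerves the log2 fold change was 1.2 (SE 0.34, adjusted p = 0.0496), and Fgfr2 passed the count minimum there through the RaptorKOs alone. In RaptorKOs it rose upon injury by a log2 fold change of 0.70 (SE 0.26, adjusted p = 0.0386).

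Both Fgfr2 calls were marginal. The genotype difference in injured nerves was lost without RaptorKO injured replicate 1, 2 or 3 (adjusted p = 0.1, 0.103 and 0.0748) or control injured replicate 1 or 2 (0.117 and 0.173). The rise upon injury in RaptorKOs was lost without any RaptorKO injured nerve (0.0574, 0.135 and 0.062) and without RaptorKO contralateral replicate 1, 2 or 4 (0.0717, 0.0873 and 0.0524). With the replicate number as a block, which compares the sides within mice, it was 0.71 and not called (adjusted p = 0.0822). Without a count minimum Fgfr2 could be followed in all 4 comparisons. It was then higher in RaptorKOs in contralateral (log2 fold change 1.40, SE 0.42, adjusted p = 0.0488) and injured nerves (1.19, SE 0.35, adjusted p = 0.0156), where 5.86% and 7.26% of all genes with a count were called in either direction. Upon injury it gave 0.94 (adjusted p = 0.139) in controls and 0.73 (adjusted p = 0.0555) in RaptorKOs, where 42.8% and 36.8% of genes were called.

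Fgfr3 (ENSMUSG00000054252, chromosome 5, 33721674 to 33737068) had 51, 41 and 34 counts in control contralateral and 15, 26 and 24 counts in control injured nerves. In RaptorKOs it had 55, 95, 59 and 30 counts and 44, 59 and 33 counts. The injured controls were the lowest group, without overlap in CPM with the contralateral controls (1.38 to 2.39 CPM against 3.33 to 4.66 CPM), and it did not overlap with either RaptorKO group (3.88 to 7.28 CPM in contralateral and 3.03 to 4.66 CPM in injured nerves). The other groups overlapped with each other. Where it was tested, Fgfr3 was not called, with log2 fold changes of 0.61 (95% confidence interval -0.03 to 1.26, adjusted p = 0.223) between contralateral nerves and -0.56 (95% confidence interval -1.25 to 0.12, adjusted p = 0.141) upon injury in RaptorKOs. Without a count minimum, the values were -0.87 (adjusted p = 0.105) upon injury in controls and 0.93 (adjusted p = 0.239) between injured nerves. Exons of Fgfr3 share 998 bases, 13.9% of their length, with G630022F23Rik on the other strand.

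**Figure D3:**
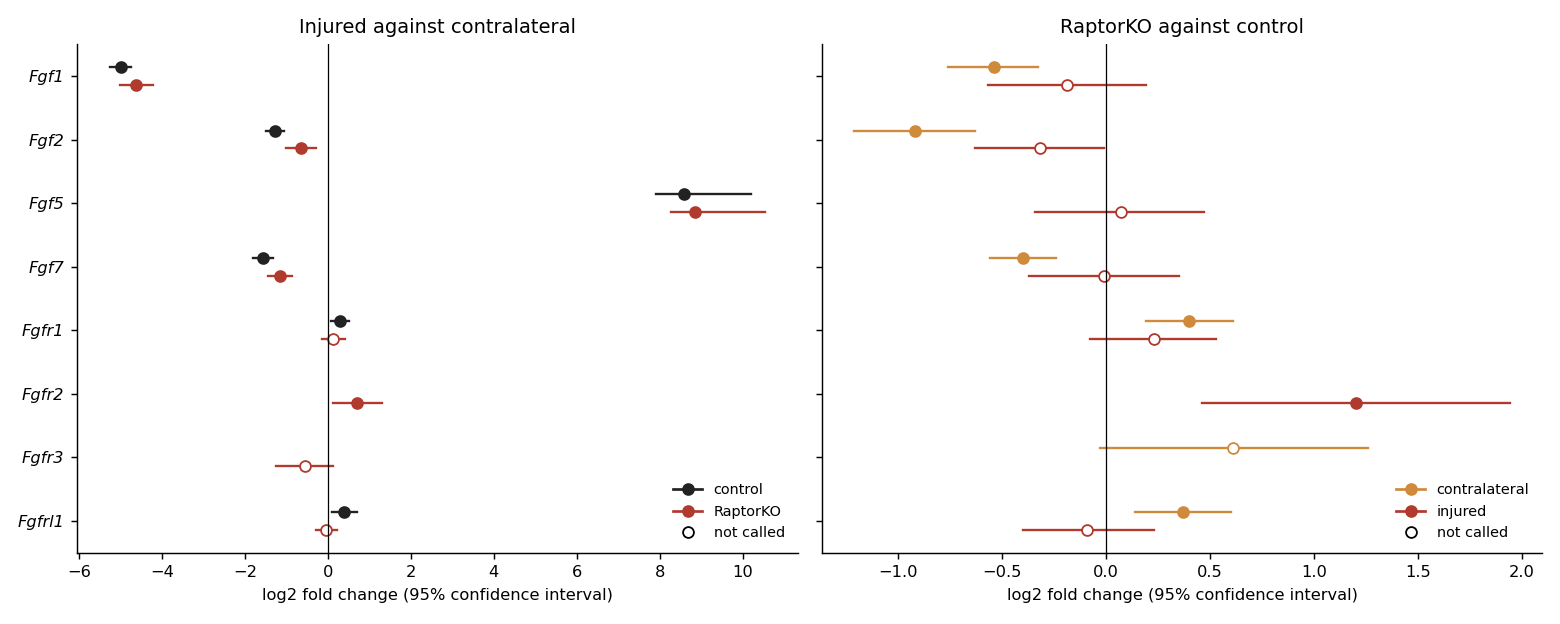
Log2 fold change with its 95% confidence interval for each tested member, upon injury in controls and RaptorKOs and between genotypes in contralateral and injured nerves, where filled points passed the test and open points did not. Fgf1, Fgf2 and Fgf7 lie left of 0 in both injury comparisons and in contralateral RaptorKOs, and the fitted values of Fgf5 depend on the prior count.

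The genotype by injury interaction asks whether the response to injury differed between genotypes. Of 8 members tested, 0 were called with edgeR's quasi-likelihood test and 0 with DESeq2, whereas 1.07% of 12851 genes had a higher and 1.41% a lower response in RaptorKOs. At an unadjusted p below 0.05 there were 3, Fgf2, Fgf7 and Fgfrl1. The interaction shares its libraries with the other comparisons, so these values are not separate evidence. For Fgf1 it was 0.36 (95% confidence interval -0.04 to 0.77, adjusted p = 0.434), for Fgfr1 -0.17 (-0.54 to 0.21, adjusted p = 0.762), for Fgfr2 -0.22 (-1.34 to 0.90, adjusted p = 0.914), and for Fgfr3 0.33 (-0.66 to 1.33, adjusted p = 0.828). No value is given for Fgf5, whose contralateral level is set by 2 counts.

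Without the libraries of control replicate 3, Fgf1, Fgf2 and Fgf7 stayed lower in RaptorKO contralateral nerves (log2 fold changes -0.54, -0.91 and -0.36, adjusted p = 0.0221, 0.0106 and 0.0401). Upon injury in controls they gave -5.01, -1.17 and -1.49 and all passed the test. Fgfr2 in injured nerves gave 1.48 (adjusted p = 0.0423). Fgfr1 and Fgfrl1 between contralateral nerves, at 0.43 and 0.39, did not pass (adjusted p = 0.0659 and 0.114).

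The genes whose profile over the 13 libraries was most like that of a member were found by the root mean square (RMS) difference of log2 CPM, each gene centered on its own mean, among 12850 genes. For Fgf5 these were Lgals3 (RMS difference 0.274), Timp1 (0.418) and Tk1 (0.426), while Fgf5 itself varied by 3.16 about its mean. The log2 CPM were computed with a prior count of 2, which sets the level of Fgf5 in contralateral nerves. The size of its change on this scale, and with it the choice of nearest genes, therefore depends on that setting. Lgals3 encodes galectin-3, Timp1 an inhibitor of matrix metalloproteinases, and Tk1 thymidine kinase. For Fgfrl1, the receptor with the larger change upon injury in controls of the pair that passed the count minimum there, the nearest 3 included Atp5b (0.087) and Eif3l (0.098), beside a spread of only 0.173 for Fgfrl1. For Fgf1, added after its values had been seen, they were Ctnna3 (0.184), Paqr6 (0.186) and Smco3 (0.203), at a spread of 2.39. Ctnna3 encodes an alpha-catenin, and had a mean of 81.9 CPM in control contralateral and 2.47 CPM in control injured nerves.

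Among the other ligands only Fgf4 of 12 passed the count minimum. Fgf4 encodes a secreted ligand known from the early embryo and the limb bud. It had 29.4 to 35.4 CPM in control and 23.3 to 38.7 CPM in RaptorKO contralateral nerves, and 0 to 4 and 1 to 5 counts in the injured nerves of the 2 genotypes. It fell upon injury in both (fitted log2 fold change -7.62, adjusted p = 8.42e-09, and -6.80, adjusted p = 1.12e-07). In these 2 comparisons Fgf4 passed the count minimum through the contralateral nerves alone. The fitted values ranged from -9.17 to -6.6 in controls and from -7.38 to -6.09 in RaptorKOs over 14 alternatives. Fgf4 did not pass the test between contralateral nerves (-0.09, adjusted p = 0.794). Of 4 FGF homologous factors, which stay inside the cell and bind sodium channels, 1 was tested. That gene, Fgf11, was lower in RaptorKOs in contralateral (13.1 ± 1.46 against 20.9 ± 1.74 CPM, log2 fold change -0.66, adjusted p = 0.0154) and injured nerves (6.67 ± 0.99 against 17.7 ± 4.44 CPM, -1.39, adjusted p = 0.00455), and fell upon injury in RaptorKOs (-0.97, adjusted p = 0.00127). The contralateral call was lost without control contralateral replicate 1 or 2 (adjusted p = 0.0709 and 0.0728).

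Of 8 genes for other receptors, co-receptors and binding proteins, 3 were tested upon injury. Flrt3, a membrane protein that binds FGF receptors, rose from 14.4 ± 1.54 to 90.8 ± 1.94 CPM in controls (log2 fold change 2.63, adjusted p = 1.74e-09) and from 13.5 ± 1.67 to 42.4 ± 3.8 CPM in RaptorKOs (1.65, adjusted p = 3.20e-06). Injured RaptorKOs had less of it than injured controls (-1.08, adjusted p = 3.60e-04), and the smaller response passed the interaction test (-1.0, SE 0.17, adjusted p = 0.00747). Fgfbp3, an FGF carrier protein, rose in both genotypes (2.33 and 2.06), and Flrt2 fell in both (-1.54 and -2.41). Fgfbp3 did not reach the count minimum between contralateral nerves, so its tests upon injury rest on the counts in injured nerves.

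For this and the following groups, the shares over all tested genes were 32.4% higher and 32.9% lower upon injury in controls, 30.5% and 28.5% in RaptorKOs, 4.49% and 5.68% between contralateral nerves, and 4.09% and 4.44% between injured nerves. Heparan sulfate proteoglycans and the enzymes that build their chains had members called in both directions. Of 11 tested core proteins 3 rose and 6 fell upon injury in controls, and 2 rose and 5 fell in RaptorKOs, with medians of -0.39 and -0.41. Gpc2, which rose in both genotypes, did not reach the count minimum between contralateral nerves. Gpc1, a glypican, rose from 39.2 ± 6.04 to 633 ± 45.8 CPM in controls (3.99, adjusted p = 3.28e-10) and from 60.9 ± 33.3 to 460 ± 99.8 CPM in RaptorKOs (2.91, adjusted p = 5.04e-05). Between contralateral nerves 3 of 10 tested core proteins were higher in RaptorKOs, led by Gpc3, another glypican (0.90, adjusted p = 0.00211), and 0 were called between injured nerves. The contralateral calls of Gpc4 and Hspg2 were lost in 8 and 3 of 14 alternatives. Of 9 tested enzymes, 5 rose in controls upon injury and 3 rose and 1 fell in RaptorKOs. The rise of Ndst2 in RaptorKOs (0.32, adjusted p = 0.0349) was lost in 11 of 14 alternatives, DESeq2 and the exact test among them. Between contralateral nerves 1 of 9 was higher and 1 lower in RaptorKOs. The sulfatase Sulf1 was the higher (0.72, adjusted p = 0.00417). The sulfotransferase Ndst1 was the lower (-0.33, adjusted p = 0.0203), a call lost without RaptorKO contralateral replicate 1 (0.0637) or control contralateral replicate 1, 2 or 3 (0.0943, 0.0638 and 0.052). The sulfotransferase Hs2st1 was lower in injured RaptorKOs (63.2 ± 5.72 against 92.4 ± 1.09 CPM, -0.53, adjusted p = 0.0107), a call lost without RaptorKO injured replicate 1 (0.0592).

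Of 10 receptor adaptors, 2 rose and 7 fell upon injury in controls, and 2 rose and 5 fell in RaptorKOs, with the docking protein Gab1 at -1.70 and -1.34. Of 9 genes of the Ras-MAPK cascade, 2 rose and 3 fell in each genotype, with Mapk3, encoding Erk1, at -1.15 and -1.07. Between genotypes 0 of the 9 cascade genes were called on either side, although their summed level was 1511 to 1690 CPM in control and 1295 to 1492 CPM in RaptorKO contralateral nerves. In injured nerves it was 991 to 1128 CPM and 919 to 997 CPM. Among the adaptors, only Plcg1, a phospholipase that docks on FGF receptors, was called, and it was higher in injured RaptorKOs (56.6 ± 5.77 against 30.8 ± 1.34 CPM, 0.89, adjusted p = 0.00184).

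Feedback inhibitors and Etv factors are induced by FGF and other MAP kinase signals. Of 8 tested inhibitors 5 rose and 1 fell in controls, and 6 rose in RaptorKOs, with medians of 1.01 and 0.85, and Spred3 at 1.97 and 1.90. Injured RaptorKOs had more Spry4 (27.5 ± 5.68 against 13.1 ± 1.77 CPM, log2 fold change 1.09, adjusted p = 0.00545) and Spry2 (54.1 ± 6.33 against 34.2 ± 1.73 CPM, 0.68, adjusted p = 0.00844) than injured controls. The other tested inhibitors were not called between injured nerves. Spry2 was also called higher in RaptorKO contralateral nerves (0.52, adjusted p = 0.0464), and this call was lost without any of the 3 control contralateral nerves (adjusted p = 0.162, 0.097 and 0.11) or without RaptorKO contralateral replicate 2, 3 or 4 (0.0649, 0.102 and 0.0749). Of 3 Etv factors, Etv4 and Etv5 rose upon injury in both genotypes, and Etv4 was higher in injured RaptorKOs (29.7 ± 1.3 against 16.5 ± 0.428 CPM, 0.86, adjusted p = 0.00392). The other Etv factors were not called between injured nerves. The rise of Etv4 in controls (0.55) was lost without contralateral replicate 2 (adjusted p = 0.0511), and that of Etv5 in RaptorKOs (0.79) without injured replicate 1 or 3 (0.0537 and 0.0527). Each of these genes answers to several receptors, and whether any receptor acted on them here was not tested.

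**Figure D4:**
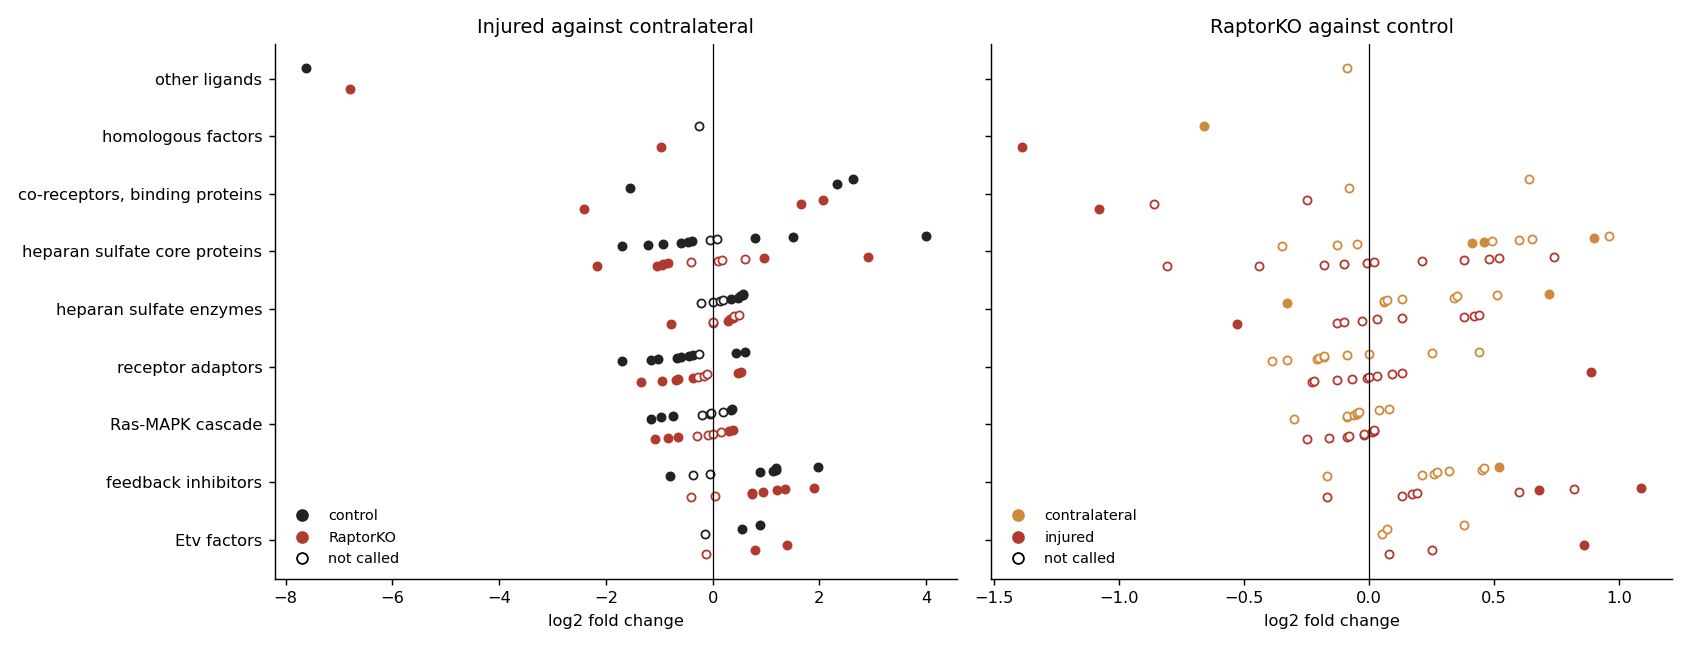
Log2 fold change of the tested genes in the 9 groups of other FGF-related genes, upon injury and between genotypes, with filled points for genes that passed the test and open points for those that did not. Spry4, Spry2, Etv4 and Plcg1 stand on the right and Flrt3, Fgf11 and Hs2st1 on the left among filled points for injured RaptorKOs.

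Marker genes of the other cells of the nerve moved with these comparisons too. Macrophage markers summed to 73.6 to 100 CPM in control and 121 to 169 CPM in RaptorKO contralateral nerves, where 3 of 6 tested markers were higher in RaptorKOs. In injured nerves they summed to 679 to 1148 CPM in controls and 561 to 1349 CPM in RaptorKOs, and 8 of 8 rose upon injury in each genotype. Mast cell markers summed to 13.7 to 61.3 CPM in control and 84 to 146 CPM in RaptorKO contralateral nerves, with 2 of 5 tested markers higher. Perineurial markers went from 1067 to 1908 CPM down to 420 to 534 CPM, with 7 of 7 lower in controls and 6 of 7 in RaptorKOs. Fibroblast markers summed to 6519 to 7446 CPM in control and 9553 to 12658 CPM in RaptorKO contralateral nerves, where 3 of 8 were higher and 0 lower. In injured nerves they summed to 6411 to 9283 CPM in controls and 8210 to 12948 CPM in RaptorKOs, with 2 of 7 higher.

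In the injured nerves, where Fgfr2, Spry4 and Etv4 were higher in RaptorKOs, vascular markers were higher as well. Endothelial markers summed to 269 to 413 CPM in controls and 496 to 775 CPM in RaptorKOs, and 7 of 8 were called higher. Pericyte and vascular smooth muscle markers summed to 495 to 611 CPM and 986 to 1346 CPM, with 6 of 7 called. Mast cell markers summed to 8.75 to 53.3 CPM and 108 to 202 CPM, with 5 of 6 called. In contralateral nerves the endothelial markers summed to 494 to 537 CPM in controls and 503 to 599 CPM in RaptorKOs. The pericyte and vascular smooth muscle markers summed to 915 to 993 CPM and 855 to 1116 CPM there. For both of these vascular lists, the injured controls were below every other nerve. All 7 genes of each of the mast cell and perineurial lists, all 6 of the SC list, and all 8 of the fibroblast, endothelial, pericyte and macrophage lists had counts in every group. Skeletal muscle markers (3.39 to 27.7 CPM) and T cell markers (1.23 to 24.2 CPM) were low in all nerves, with Myh1 at 0 counts in every group. Adipocyte markers ranged from 1.53 to 468 CPM between nerves. The part of these cells in the levels of the FGF genes was not tested.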

How the data were processed

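RNA from 13 sciatic nerves was sequenced after TruSeq library preparation. Per the labels and the study's methods, the authors trimmed reads with Trimmomatic and quantified genes with RSEM 1.2.22 on GRCm38, and deposited expected counts per gene, which divide reads that match several genes among them by estimation. The deposited counts were rounded to whole numbers here. Genes were tested with edgeR 4.0.16 (TMM factors, quasi-likelihood test) in R 4.3.3 when they had at least 50 counts in 2 libraries of the fit, and called at a Benjamini-Hochberg adjusted p below 0.05 and a fold above 1.2. The pairwise comparisons used only the libraries of the groups compared, and the interaction all 13. Standard errors were taken as the log2 fold change over the square root of F. Gene positions and lengths came from GENCODE M21, in which 40634 of 40787 genes were found, and promoter windows from RefSeq. The procedure was tested on simulated counts. It recovered from 64.8% of the changed genes in the interaction to 92.9% between contralateral nerves. False calls made up 9.6% of calls between injured nerves and 9.8% upon injury in controls, more than the adjusted p threshold of 0.05 aims for. They made up 4.2% between contralateral nerves, 6.7% upon injury in RaptorKOs, and 3.1% in the interaction.

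The members and all lists (other ligands, FGF homologous factors, co-receptors, proteoglycans, their enzymes, adaptors, cascade, inhibitors, Etv factors, and markers of SCs, fibroblasts, perineurial cells, endothelium, pericytes, macrophages, mast cells, skeletal muscle, adipocytes and T cells) were chosen with earlier results of these data known. All members are named, and of each other FGF-related list at most 3 called genes per comparison with the largest changes. Injured nerves and the corresponding contralateral nerves carry the same number, taken from the labels. The correlations of deviations from the group means over genes were 0.068 to 0.305 between sides in controls and -0.024 to 0.211 in RaptorKOs, and -0.05 to 0.027 between same-numbered injured nerves of different genotypes. Same-numbered contralateral nerves of different genotypes gave 0.072 to 0.301, and differently numbered ones -0.363 to 0.261. Whether a shared number stands for anything in common across genotypes is not given in the labels, and was not tested. Alternatives were RLE factors, no count minimum, a prior count of 2, edgeR's exact test, DESeq2 1.42.0, all 13 libraries in 1 fit, the replicate number as a block, and leaving out each nerve or both libraries of control replicate 3. No pair of libraries within a group was a duplicate, with a chi-square per degree of freedom of at least 8.24 over 15 pairs. Depth limits genes with few counts, here Fgf10, Fgf18, Fgfr2 and Fgfr3. Some items are not reported here, and 3 list genes were left out of the printed counts, sums and plots for that reason.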

Additional observations from a re-analysis of the deposited data

Results flagged for a closer look

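In RaptorKO contralateral nerves, Fgf5 was at 0.09575 CPM in replicate 3 and at 0 in the other 3 nerves, so that the gap between the highest nerve and the rest was the whole range. This is a single count. Among the 10 members this was the only one with a nerve that far from the others in this group of 4. The limit used gives about 1 such case in 20 groups by chance for values that vary continuously, which does not hold here. With a single count in 1 nerve and 0 in the rest, the gap is always the whole range, so the flag says nothing further about Fgf5. The groups of 3 were not examined in this way.

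Among the other FGF-related genes, the response to injury of Flrt3 and Hs2st1 differed between genotypes in the interaction test of edgeR. For Flrt3 the difference was -1.0 on the log2 scale (SE 0.17, adjusted p = 0.00747). For Hs2st1, which had 92.4 ± 1.09 CPM in control injured and 57.1 to 69.9 CPM in contralateral and RaptorKO injured nerves, it was -0.59 (SE 0.13, adjusted p = 0.0264). The Hs2st1 call was lost in 11 alternatives, with adjusted p from 0.0504 to 0.121, 9 of which left out a single nerve, 1 both libraries of control replicate 3 (0.121), and 1 used the replicate block (0.0626).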

How the results depend on the processing

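The calls of Fgf1, Fgf2 and Fgf7 between contralateral nerves and in both injury comparisons, and of Fgf5 in both injury comparisons, kept their direction and passed the test under all 14 alternatives. Of all alternatives run on members, 454 kept direction and call, 42 lost the call, and 8 reversed a value that was not called. These 8 all left out nerves, over which the log2 fold change ranged from -0.03 to 0.18 for Fgf5 and from -0.13 to 0.13 for Fgf7 between injured nerves, from -0.02 to 0.21 for Fgfr1 upon injury in RaptorKOs, and from -0.71 to 0.33 for Fgfr2 in the interaction. The number of members called higher between injured nerves went from 1 to 0 with all 13 libraries in 1 fit and with the replicate block, and was 0 to 1 when nerves were left out. Between contralateral nerves it went from 2 to 1 with DESeq2, the exact test and the replicate block, where Fgfr1 kept its call, and also with all 13 libraries, where Fgfr1 and Fgfrl1 lost theirs and Fgfr2, which then passed the count minimum, was called. It was 0 to 1 when nerves were left out. Upon injury it was 1 to 3 in controls and 1 to 2 in RaptorKOs when nerves were left out, and 1 in RaptorKOs with all 13 libraries, no count minimum or the replicate block. Of the other named genes, 775 alternatives kept the call and 54 lost it. The cause was not tested.

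Over all genes, 1028 calls between injured nerves became 1578 without a count minimum, where more genes were tested, and 447 to 1000 when a nerve was left out, fewest without control injured replicate 2. Between contralateral nerves 1208 became 524 to 1418, fewest without control contralateral replicate 2. The interaction gave 318, 598 with DESeq2, and 113 to 284 when nerves were left out, fewest without both libraries of control replicate 3. With the replicate block, which pairs the sides within mice but has no such meaning between genotypes, the counts were 796 between injured and 1810 between contralateral nerves, 8026 and 7267 upon injury in controls and RaptorKOs (8119 and 7372 without it), and 353 for the interaction. In the comparisons within mice it changed no other call of a member than that of Fgfr2 upon injury in RaptorKOs.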
